A study of Mus musculus with 24 samples.

Results

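A set of 9 genes that mark the base of the intestinal crypt or are switched on by Wnt signalling, Lgr5, Ascl2, Axin2, Myc, Cd44, Ephb2, Ephb3, Sox9 and Tcf7l2, were followed in the colon and liver of mice. They were chosen by name, and all their probes were used, which gave 9 of 27962 gene names and 20 of 41174 probes on the array. Gene expression was measured in colon and liver of 12 female C57BL/6 mice of 12 weeks of age. All of them were offspring of dams fed a diet rich in fat and poor in selenium and folate (HF-low) from 7 days before mating through gestation and lactation. From weaning at c. 28 days, 6 mice were kept on that diet (HF-low-low) and the other 6 were given a high-fat diet in which both nutrients were sufficient (HF-low-suf). There was no group on a standard diet, so the high-fat feeding and the low maternal supply were shared by all 24 arrays. RNA came from whole tissue, so the colon samples held muscle, nerve and fat beside epithelium.

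In the Wnt pathway a secreted Wnt protein binds a Frizzled receptor and an LRP co-receptor, which spares β-catenin from destruction and lets it enter the nucleus and act with TCF/LEF factors on target genes. In the intestine the signal is strongest at the base of the crypt, where stem cells divide, and R-spondins raise it through the Lgr receptors. In the liver the pathway acts mainly in the hepatocytes around the central vein, where it sustains genes such as glutamine synthetase. Lgr5 and Axin2 are used as marks of cells with active Wnt signalling in both tissues.

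Each sample was labelled with Cy3 and set on its array against a reference labelled with Cy5. The paper describes this reference as a pool of intestinal and liver RNA of all mice. Every value below is the log2 ratio of sample to that pool. The dyes were not swapped, so the sign of a ratio can hold a dye effect, which cancels in a difference between samples. The study's own tables compare the diets only, and HF-low-suf minus HF-low-low differences here run opposite to them. The direction of each diet difference below rests on the dyes and diets as the labels give them. The main probe of a gene is its probe with the highest mean intensity. "Well above background" is the call of the scanning software for a spot in Cy3. Where fewer cells of a type are present in a tissue and where each cell holds less RNA, the ratio falls alike, so these cannot be told apart in bulk samples.

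The tissue markers followed the labels, with 1 exception. Alb, the main plasma protein of hepatocytes, had a mean of 0.84 ± 0.44 (SD, n = 12) in liver and -4.37 ± 0.36 in colon, and Krt20, a keratin of differentiated colonocytes, had -6.00 ± 0.48 in liver and -0.20 ± 0.33 in colon. All 6 hepatocyte markers were higher in liver and 6 of 7 colon epithelium markers were higher in colon, the exception being Aqp8. All 6 smooth muscle markers, 5 of 5 fat markers and 4 of 5 markers of enteric nerve and glia were also higher in colon. The share of probes well above background in Cy3 ran from 26.1% to 71.9% over the arrays, and the Cy3 signal was 3.78 to 7.20 times its background. The number of arrays, 6 in each group, limits the precision.

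Some livers stood apart in their marker lists. In HF-low-suf replicates 4 and 5 and HF-low-low replicate 6 the mean log2 ratio of the colon epithelium list was -2.82 to -2.49 against -3.71 to -3.32 in the other 9 livers. In the same 3 livers the proliferation list was -0.98 to -0.85 against -2.36 to -1.46, and the pancreas list was -1.92 to -1.29 against -3.39 to -2.44. Their Ephb2 and Ephb3 ratios were above, and their Ascl2 ratios below, those of the other 9 livers. The adipose list was 2.66 in liver HF-low-suf replicate 1 and -1.44 to -0.09 in the other livers, and the skeletal muscle list was -3.14 in liver HF-low-suf replicate 2 and -5.42 to -4.38 in the others. The part of these lists in the results below was not tested. In the colons the skeletal muscle list ran from -5.75 to -4.66 and the pancreas list from -3.86 to -2.55. Both lists were thus negative against the pool on every array of both tissues. The make-up of the pool was not tested, so these ratios are not read as levels.

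The deposited probe sequences show where on a transcript a gene was read. The 3 below are shown because each is a further probe that stayed dim where another probe of the same gene was bright, so what was measured depends on them. They are given 5′ to 3′ in lower case throughout, and positions are those of the files, in build mm7.

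Sox9 (chr11:112892041-112892893, forward strand): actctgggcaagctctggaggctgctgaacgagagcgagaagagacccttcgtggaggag

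Ephb2 (chr4:136035998-136037395, reverse strand): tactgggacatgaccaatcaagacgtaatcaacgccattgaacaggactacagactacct

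Cd44 (chr2:102685050-102685109, reverse strand): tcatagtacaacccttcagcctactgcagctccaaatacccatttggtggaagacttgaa

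The Sox9 probe lies in the part that encodes the DNA-binding HMG box, and its 60 bases cover 853 bases of the genome, so it crosses an intron. The Ephb2 probe lies in the part that encodes the kinase domain and crosses an intron as well, with its 60 bases over 1398 bases of the genome. The Cd44 probe lies in the variable region, which is spliced in or out of the transcript. These probes lay 2698, 4212 and 21513 bases of genome towards the 5′ end from the main probes of Sox9, Ephb2 and Cd44. Of the 9 genes 6 had more than 1 probe, and of their 11 other probes 9 lay towards the 5′ end from the main probe. GC content over the 20 probes ran from 25.0% to 63.3%.

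Colon was compared with liver to see in which tissue each of the crypt genes was higher. Of the 9 genes 7 were higher in colon by the main probe, and none was higher in liver, at an adjusted P below 0.05 and a fold change above 1.5 (limma on the 24 arrays, mouse taken as random block). Of all probes 12.2% were higher in colon and 11.4% higher in liver by the same rule. With each array centred on its median in place of loess these shares were 15.7% and 6.5%, and the 9 genes still gave 7 and 0. The fitted level was 4.94-fold higher in colon for Sox9, 4.88-fold for Ephb3 and 4.18-fold for Ephb2, though Sox9, Ephb3 and Ephb2 were well above background on 6, 3 and 2 of 12 livers, and their differences were larger with the signals as processed by the scanning software. These were followed by Cd44 at 2.54-fold, Tcf7l2 at 1.88-fold, Myc at 1.80-fold and Axin2 at 1.54-fold. Lgr5 and Ascl2, the genes most restricted to the stem cells of the crypt, were not among them. The median difference of the 9 genes was 0.91 on the log2 scale, against -0.02 over all probes.

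**Figure D1:**
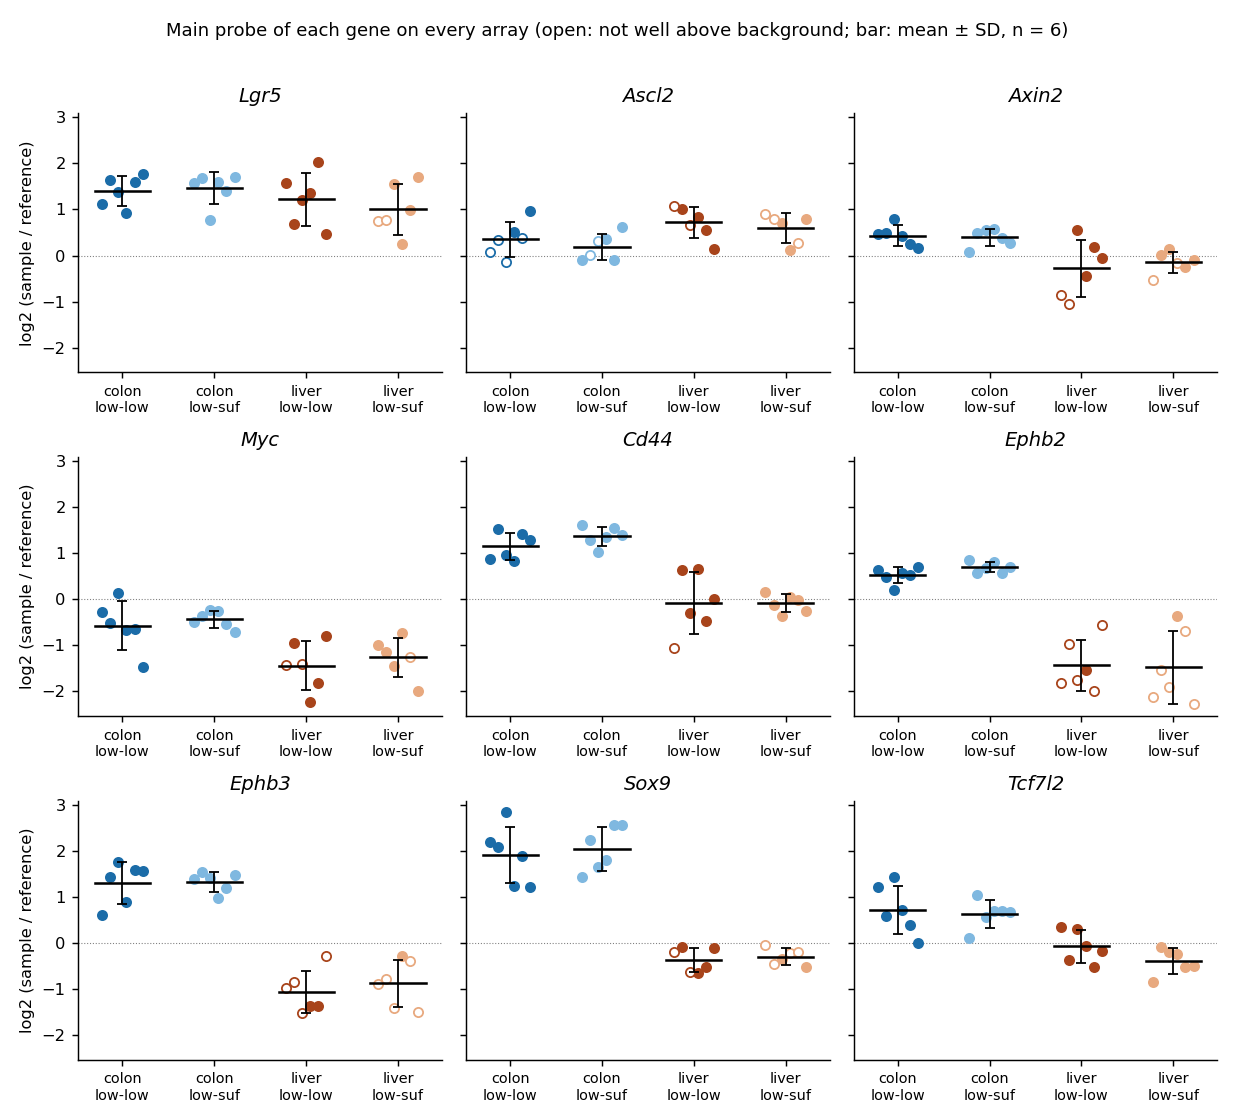
Log2 ratio of sample to reference (y axis) of the main probe of each gene on every array, by tissue and post-weaning diet (x axis). Points are arrays, open where the spot was not well above background, and bars are the mean ± SD of 6 arrays. The colon points of Cd44, Ephb2, Ephb3 and Sox9 all sit above the liver points, while those of Lgr5 and Ascl2 overlap.

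Lgr5 encodes the R-spondin receptor that marks the cycling stem cells of the crypt, and it is also found in hepatocytes around the central vein. Its main probe (chr10:114958025-114958084) cleared the background call on 12 of 12 colon arrays and on 10 of 12 liver arrays. The log2 ratio in colon was 0.78 at the lowest, 1.58 at the median and 1.78 at the highest, and in liver 0.24, 1.09 and 2.03. Both tissues gave positive ratios on every array, which are not read as levels, since the sign can hold a dye effect. Their ranges overlapped, with 5 of 12 livers below the lowest colon and 1 above the highest. The difference of 0.32 ± 0.17 (SE) did not pass (adjusted P = 0.160), its 95% interval ran from -0.03 to 0.67, and colon was higher in 7 of 12 mice (exact paired permutation test, two-sided, P = 0.162). Under the processing alternatives the difference ran from -0.13, with the signals as processed by the scanning software, to 0.44, with median centring, which passed the adjusted P (0.0107) but not the fold threshold. Without the 3 livers high in epithelium, proliferation and pancreas markers it was 0.14. The other Lgr5 probe was not well above background on any array, so it gives no level in either tissue.

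Ascl2, a transcription factor that sets the identity of the crypt stem cell, was dim in both tissues, with its only probe (chr7:139395814-139395873) well above background on 6 colon and 7 liver arrays. Its log2 ratio was -0.14 at the lowest, 0.32 at the median and 0.97 at the highest in colon, and 0.12, 0.75 and 1.08 in liver. The groups overlapped. The mean was lower in colon by 0.39 ± 0.13 on the log2 scale, a 1.31-fold difference that passed the adjusted P (0.0171) but not the fold threshold, and colon was higher in 2 of 12 mice (exact paired permutation test, two-sided, P = 0.0322). By the adjusted P alone 19.4% of all probes were lower and 19.0% higher in colon. The difference was -0.78 on the arrays of the first scan day and 0.0029 on those of the second, and -0.97 with the signals as processed by the scanning software. The first and the last of these passed both thresholds, with Ascl2 higher in liver (adjusted P = 0.00045 and 6.45e-05). Without the 3 livers named above, the lowest livers for Ascl2, it was -0.55, under the fold threshold. Leaving out the lowest livers brings such a shift by itself.

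Axin2, a scaffold of the complex that destroys β-catenin and itself a target of the pathway, was read by 1 probe (chr11:109059707-109059766) that was well above background on 12 colon and 8 liver arrays. The log2 ratio ran from 0.08 through a median of 0.45 to 0.80 in colon and from -1.04 through -0.13 to 0.55 in liver. The liver arrays were the more spread, with the SD of the HF-low-low livers at 0.61 against 0.23 in the HF-low-suf livers. Colon was higher in 12 of 12 mice, by 0.62 ± 0.13 (adjusted P = 0.000287), which was just over the fold threshold of 1.5. Without liver HF-low-low replicate 1 the difference was 0.56 and without liver HF-low-low replicate 2 it was 0.54, both under that threshold with the adjusted P still passed. Within the second scan day it was 0.48 (adjusted P = 0.0113), also under the fold threshold.

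Myc, which drives growth and division and is a classical target of β-catenin, gave a negative ratio on all arrays but 1. That sign is likewise not read as a level. The log2 ratio of its main probe (chr15:62064256-62064316) was -1.47 at the lowest, -0.51 at the median and 0.15 at the highest in colon, and -2.23, -1.33 and -0.74 in liver. It was well above background on 12 colon and 9 liver arrays. The ranges overlapped, and colon was higher in 11 of 12 mice, by 0.85 ± 0.16 (adjusted P = 8.09e-05). A neighbouring probe, 99 bases towards the 5′ end, gave 0.64 ± 0.17 (adjusted P = 0.00267). The probe in the coding part was well above background on 5 colon and 2 liver arrays and gave 0.27 ± 0.17, which did not pass (adjusted P = 0.226). Within the second scan day the main probe gave 0.76 with an adjusted P of 0.0528.

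Cd44, the hyaluronan receptor found on crypt base cells and on many leukocytes, separated the tissues. Its main probe (chr2:102663537-102663596) ran from 0.83 through 1.32 to 1.60 in colon and from -1.05 through -0.07 to 0.67 in liver. All colon arrays lay above all liver arrays, as they did for 6.50% of all probes, while for 5.97% every liver lay above every colon. The difference was 1.34 ± 0.14 (adjusted P = 6.45e-09), and a second probe printed in 10 copies, 1240 bases towards the 3′ end, gave 1.76 ± 0.11 (adjusted P = 4.96e-13). The variable-region probe shown above was well above background on 1 of 12 colon arrays and on no liver array, so no fold change can be given for the transcripts that hold it.

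Ephb2 and Ephb3, receptors of the ephrin-B ligands that keep the cells of the crypt base apart from those above them, were also higher in colon. Ephb2 (chr4:136033124-136033183) ran from 0.20 through 0.61 to 0.85 in colon and from -2.28 through -1.64 to -0.36 in liver. It was well above background on 12 colon arrays and on 2 liver arrays, and differed by 2.06 ± 0.17 (adjusted P = 1.27e-10). Ephb3 (chr16:20872385-20872444) ran from 0.61 through 1.42 to 1.76 in colon and from -1.52 through -0.93 to -0.28 in liver. It was well above background on 12 colon and 3 liver arrays and differed by 2.29 ± 0.15 (adjusted P = 1.24e-12). In both genes every colon lay above every liver, and most livers were near background. With the signals as processed by the scanning software the differences were larger, 3.45 for Ephb2 and 3.46 for Ephb3, and with the mean over all its probes Ephb2 gave 1.29. Without the 3 livers in which both were highest the differences were 2.39 and 2.50, a widening that leaving out the highest livers brings by itself. The kinase-domain probe of Ephb2 was well above background on 3 colon arrays, all of them HF-low-suf, and on no liver array. In HF-low-suf mice its measured difference of 0.44 did not pass (limma, adjusted P = 0.144). With only 3 of these 6 colons well above background, no lower bound is given. In HF-low-low mice the probe was not well above background on any array, so no fold is given. The measured difference of 0.59 there passed (limma, adjusted P = 0.0406), but it is a difference between values near background. Over all mice it was 0.51 ± 0.15 (adjusted P = 0.00861), under the fold threshold, with colon higher in 12 of 12 mice.

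Sox9, a transcription factor of crypt base and Paneth cells that is also found in bile ducts, separated the tissues as well. Its main probe (chr11:112894739-112894798) ran from 1.21 through 1.99 to 2.83 in colon and from -0.66 through -0.28 to -0.04 in liver. It differed by 2.30 ± 0.15 (adjusted P = 1.03e-12), a 4.94-fold higher level in colon, and colon and liver did not overlap. It was well above background on 12 colon arrays and on 6 of 12 liver arrays. A second probe printed in 10 copies, well above background on 12 colon and 4 liver arrays, gave 2.18 ± 0.13 (adjusted P = 9.85e-14). With the mean over all its probes Sox9 gave 1.55, and with the signals as processed by the scanning software 2.91. The HMG-box probe shown above was well above background on 1 colon array and on no liver array. The order of Sox9, Ephb3 and Ephb2 is not settled by these values, since the 95% interval of Ephb2, from 1.70 to 2.42, holds the differences of the other two.

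Tcf7l2, the TCF factor that carries the Wnt signal to its target genes in both gut and liver, was well above background on all 24 arrays. Its main probe (chr19:55848072-55848131) ran from 0.01 through 0.67 to 1.42 in colon and from -0.85 through -0.22 to 0.35 in liver. The tissues overlapped between mice, but within each of the 12 mice colon was higher, by 0.91 ± 0.13 overall (adjusted P = 1.56e-06). Its other 3 probes were dim. They gave 0.14, 0.38 and -0.10, none of which passed both thresholds, and the second of them was well above background on 5 colon arrays and no liver array. With the mean over all its probes Tcf7l2 differed by 0.33 and was under the fold threshold.

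**Figure D2:**
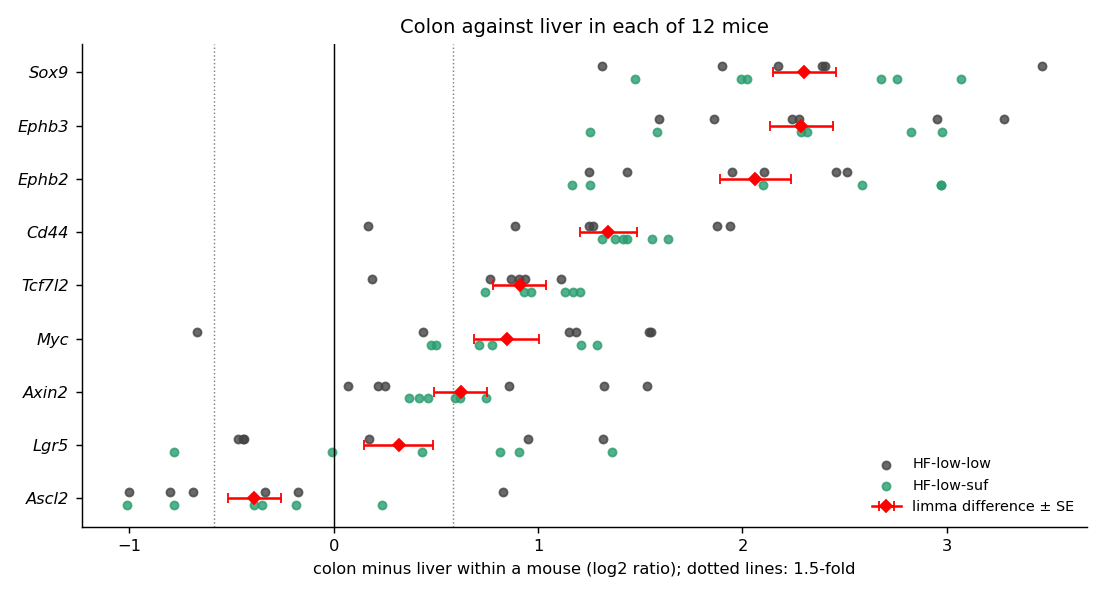
Colon minus liver within each mouse (x axis, difference of log2 ratios) for the main probe of each gene (y axis), with grey points for HF-low-low mice, green points for HF-low-suf mice and red diamonds for the limma difference ± SE. Sox9, Ephb3 and Ephb2 lie beyond 1 in every mouse, while Lgr5 and Ascl2 have mice on both sides of 0.

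The exact paired permutation test over the 12 mice gave P = 0.000488, the smallest it can give, for Axin2, Cd44, Ephb2, Ephb3, Sox9 and Tcf7l2, and P = 0.00244 for Myc. Within HF-low-low mice the same 7 genes were higher in colon, as were 12.4% of all probes. Within HF-low-suf mice 6 of them were, against 11.8% of all probes, and Axin2 gave 0.54 (adjusted P = 0.0273), under the fold threshold.

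Probe brightness moved with these differences. The 5 probes with a mean log2 intensity under 8 (A value) had differences between -0.10 and 0.51, and only 1 to 3 colon arrays or none were well above background for them. Each probe that separated colon from liver without overlap had an A value above 9. A small difference of a probe near background does not show that the tissues had a like level. The part of brightness in the differences between probes of 1 gene was not tested.

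**Figure D3:**
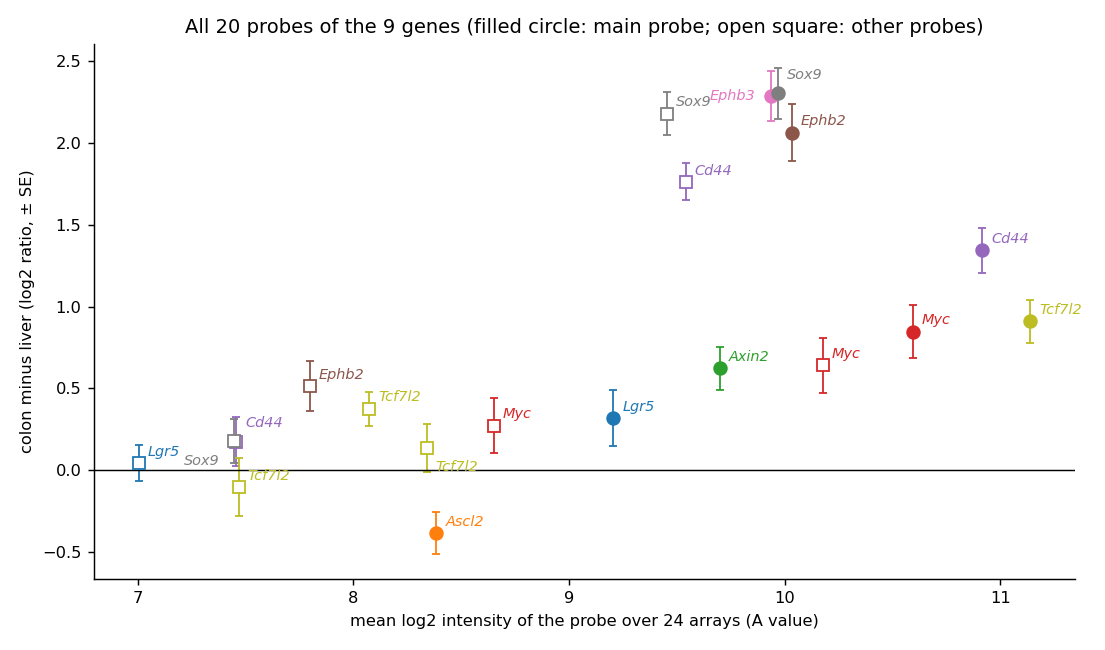
Colon minus liver (y axis, difference of log2 ratios ± SE) against the mean log2 intensity (x axis, A value) for all 20 probes of the 9 genes, with filled circles for main probes and open squares for the others. The dim probes at the left lie within 0.51 of 0, including those of Sox9, Cd44 and Ephb2, whose bright probes lie at 1.34 or above.

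The 2 post-weaning diets were compared within each tissue to see whether the supply of selenium and folate moved these genes. None of the 9 passed the study's threshold, an unadjusted P below 0.01 with a fold change above 1.5, in colon or in liver. By that rule 0.168% of all probes passed in colon and 0.109% in liver, so a count of 0 among 9 genes is near the background. No main probe reached an unadjusted P below 0.05 in limma in either tissue, where 2.99% and 2.17% of all probes did. No probe on the array passed an adjusted P of 0.05 for diet in either tissue by limma.

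In colon the HF-low-suf minus HF-low-low difference of the main probes ran from -0.17 to 0.22 on the log2 scale. Cd44 was 0.83 at the lowest, 1.12 at the median and 1.52 at the highest in HF-low-low colons and 1.02, 1.37 and 1.60 in HF-low-suf colons, a difference of 0.22 ± 0.16 with a 95% interval from -0.12 to 0.55. Ephb2 was 0.20, 0.55 and 0.70 in HF-low-low colons and 0.57, 0.69 and 0.85 in HF-low-suf colons, a difference of 0.18 ± 0.13 (exact permutation test, two-sided, P = 0.0541). Both pairs of groups overlapped. Lgr5 was 0.92, 1.49 and 1.78 in HF-low-low colons and 0.78, 1.59 and 1.71 in HF-low-suf colons, a difference of 0.05 ± 0.19. Its interval, from -0.34 to 0.45, leaves out a 1.5-fold change in either direction. In colon the intervals of 2 of the 9 genes, Myc (up to 0.59) and Sox9 (up to 0.71), reached a 1.5-fold rise.

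In liver the main probes ran from -0.32 to 0.19, with standard errors of 0.14 to 0.35. The 5 adipose markers had a median diet difference of 1.03 in liver. Without HF-low-suf replicates 1 and 2, high in adipose and skeletal muscle markers, the main probes ran from -0.29 to 0.19, and without HF-low-suf replicates 4 and 5 and HF-low-low replicate 6 from -0.35 to 0.21, with 0 of 9 past the threshold both times. Tcf7l2 was -0.51 at the lowest, -0.12 at the median and 0.35 at the highest in HF-low-low livers and -0.85, -0.38 and -0.08 in HF-low-suf livers. Its difference of -0.32 ± 0.18 was the furthest from 0 of the liver main probes and did not pass (exact permutation test, two-sided, P = 0.108). Axin2, a readout of the pathway, differed by 0.13 ± 0.24, with an interval from -0.39 to 0.66. That interval is wide enough to hold a 1.5-fold rise, and so are those of 6 of the 9 genes in one direction or the other.

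**Figure D4:**
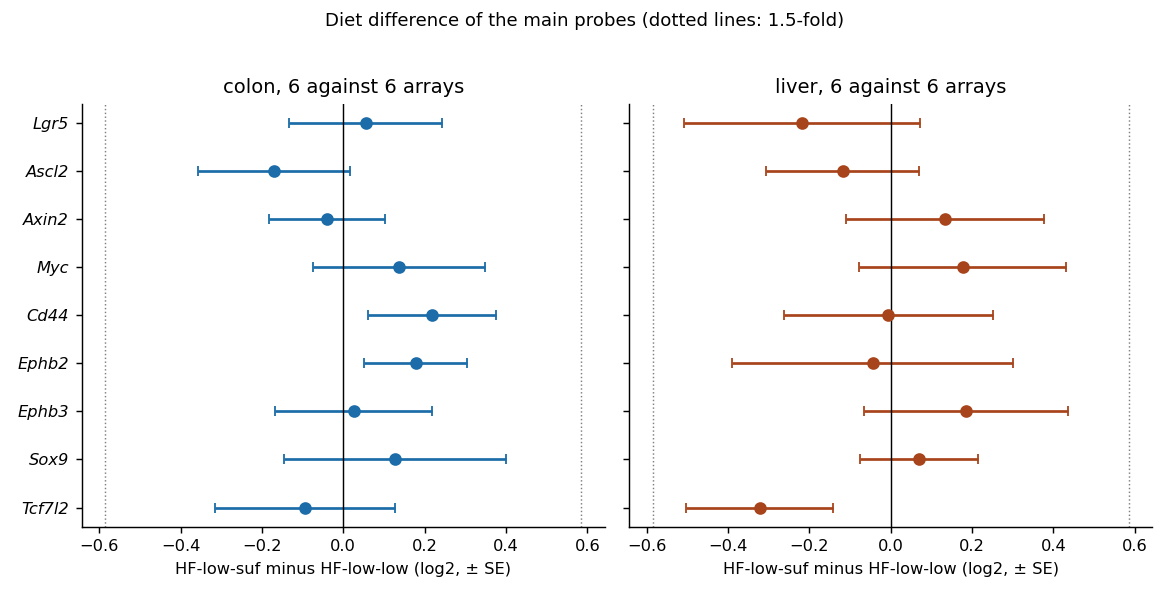
HF-low-suf minus HF-low-low (x axis, difference of log2 ratios ± SE) for the main probe of each gene (y axis) in colon (left) and liver (right). No point lies beyond the dotted lines at 1.5-fold, and most bars cross 0.

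The diet difference of Sox9 in colon had opposite signs on the 2 days on which slides were scanned. By the main probe those of Lgr5, Axin2, Myc, Ephb3 and Tcf7l2 had opposite signs too, with -0.50 and 0.31 for Tcf7l2. Ascl2, Cd44 and Ephb2 kept their sign. There were 3 slides to each of 2 scan days, and each slide held 1 array of every group, so each day holds 3 arrays of each group. The days held different slides and different mice, so day, slide and mouse cannot be told apart. The diet difference of the main Sox9 probe was -0.60 on the first day and 0.86 on the second, where it passed the study's threshold (limma, unadjusted P = 0.00865), as did 0.250% of all probes. On the first day the HF-low-low colons lay between 2.08 and 2.83 and the HF-low-suf colons between 1.43 and 2.23, and on the second they lay between 1.21 and 1.89 and between 1.81 and 2.56. The second Sox9 probe gave -0.56 and 0.34. The difference between the days was 1.46 ± 0.42 for the main probe (limma, unadjusted P = 0.00381, adjusted P = 0.986), a test chosen after the values were seen. In colon 0.449% of all probes had an unadjusted P below 0.01 in that test and 0 passed an adjusted P of 0.05. Over both days the Sox9 difference was 0.13 ± 0.27.

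Of the 11 other probes, 2 dim ones had an unadjusted P below 0.05 for diet in limma, as had 2.99% of all probes in colon and 2.17% in liver. The exact permutation test (two-sided) gave them P = 0.0519 (Cd44, colon), 0.0628 (Cd44, liver) and 0.0779 (Myc, liver). The variable-region probe of Cd44 was higher in colons of HF-low-suf mice by 0.57 ± 0.23 and lower in livers by 0.47 ± 0.21, and its difference between the tissues was 1.04 ± 0.30 (limma, unadjusted P = 0.00165, adjusted P = 0.431). It was well above background on 1 of 24 arrays, so these are differences between values near background. The coding-part probe of Myc was higher in HF-low-suf livers by 0.64 ± 0.27 (limma, unadjusted P = 0.0337), with 2 of 12 livers well above background, where its main probe gave 0.18 ± 0.25. Of all probes 6.41% had an unadjusted P below 0.05 for diet by tissue, and none passed an adjusted P of 0.05. None of the 9 main probes had an unadjusted P below 0.05 for it.

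Across the 12 colon arrays the 9 genes did not move as one. Of their 36 pairs 17 had a positive Pearson correlation, the median was -0.06, and 7 were over 0.5. Axin2 and Tcf7l2 had the highest (r = 0.811), Axin2 with Myc had 0.763, Myc with Tcf7l2 had 0.751 and Lgr5 with Cd44 had 0.731. Ascl2 and Myc had the lowest (r = -0.779). Across the 12 livers Ephb2 and Ephb3 had the highest (r = 0.846) and Lgr5 and Myc the lowest (r = -0.842). Over the 9 livers that did not stand apart in epithelium, proliferation and pancreas markers these were 0.46 and -0.746. The arrays share their reference pool, slides and scan days, and Ephb2 and Ephb3 were near background in most livers.

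Markers of other cells and of division moved with some members in liver. The mean of 8 proliferation markers correlated with Ephb3 (r = 0.941), Ephb2 (r = 0.848), Myc (r = 0.816) and Sox9 (r = 0.749) over the 12 livers, and with Lgr5 in the opposite direction (r = -0.822). Over the 9 livers left without HF-low-suf replicates 4 and 5 and HF-low-low replicate 6 these were 0.808, 0.464, 0.811, 0.792 and -0.748. The colon epithelium list gave 0.872 with Ephb3, 0.811 with Ephb2, 0.713 with Myc and -0.842 with Ascl2, and over the 9 livers 0.496, -0.088, 0.717 and 0.117. The 3 livers left out were extreme in the epithelium list and in Ephb2 and Ascl2, so leaving them out narrows the range of both. What lay behind these correlations was not tested. The pancreas list gave 0.877 with Ephb3, 0.82 with Myc, 0.787 with Ephb2, -0.761 with Lgr5 and -0.732 with Ascl2, and over the 9 livers 0.565, 0.851, 0.082, -0.53 and 0.357. The smooth muscle list gave 0.854 with Ephb3, and 0.856 over the 9 livers. In colon the proliferation list gave r between -0.56 and 0.57 with the 9 genes. In the livers the proliferation list had 1 to 6 of its 8 markers well above background and a mean log2 ratio from -2.36 to -0.85. In the colons it had 6 to 8 and -0.94 to 0.18, and 7 of the 8 markers were higher in colon than in liver. The part of dividing cells, and of the epithelium, muscle, nerve and fat markers that were also higher in colon, in the tissue differences of the crypt genes was not tested.

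The other genes of the pathway were taken as 114 genes in 7 lists, to see how the 9 genes stood among them. By the main probe 32 were higher in colon, 25 were higher in liver and 57 passed in neither direction, with a median difference of -0.04. Of all probes 12.2% were higher in colon and 11.4% in liver. Among probes well above background on at least 6 arrays, fitted alone, these shares were 23.3% and 20.6%. The same shares stand beside the counts of each list below. With each array centred on its median in place of loess 39 were higher in colon and 15 in liver, beside 15.7% and 6.5% of all probes. Of the genes named below Wnt10a, Rspo2, Fzd4, Dvl1, Tle1 and Tle2 then no longer passed, with their direction kept. None of the 114 passed the study's threshold for diet in either tissue. Every gene named in the account of these lists that follows passed both thresholds between the tissues.

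Of 23 Wnt ligands and R-spondins, 1 was higher in colon and 5 were higher in liver. Wnt2, a ligand of the liver's sinusoidal endothelium, differed most, with -3.00 ± 0.21, and Wnt5b and Wnt10a gave -1.43 ± 0.14 and -0.86 ± 0.17. The 1 higher in colon was Rspo2, named after its values were seen, which was well above background on a single colon array. Of the 23 genes 4 were not well above background on any array, and only 6 were on 6 or more arrays of a tissue, so most ligands could not be measured at this signal.

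Of 16 receptors, 4 were higher in colon and 1 in liver. Fzd10, Lgr4 and Fzd2 gave 1.22 ± 0.20, 0.91 ± 0.17 and 0.89 ± 0.15, and Fzd4 gave -0.75 ± 0.11. Lgr4 encodes a close relative of Lgr5 that also binds R-spondins. Of 16 cytoplasmic transducers, 6 were higher in colon and 3 in liver. Ctnnb1, which encodes β-catenin, was 2.83-fold higher in colon, and Csnk1a1, a kinase that marks β-catenin for destruction, gave 1.21 ± 0.08 on the log2 scale. Frat1, which holds back the kinase GSK3, gave 1.19 ± 0.17. Apc2 and Dvl1 were higher in liver, by 1.56 and 0.94 on the log2 scale.

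Of 15 nuclear factors, 4 were higher in colon and 2 in liver. The corepressors Ctbp2, Ctbp1 and Tle4 gave 2.39 ± 0.13, 1.36 ± 0.11 and 1.15 ± 0.11, and Tle1 and Tle2 gave -0.80 ± 0.12 and -0.69 ± 0.10. Of 18 inhibitors, 7 were higher in colon and 3 in liver. Kremen2, Nkd2 and Apcdd1 gave 1.97 ± 0.15, 1.74 ± 0.10 and 1.70 ± 0.23. Notum, an enzyme that strips Wnt proteins of their lipid and is itself a target of the pathway, gave -3.02 ± 0.27.

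Of 17 other crypt genes, 10 were higher in colon and 3 in liver, with a median difference of 0.98. Prom1 (CD133), Slc12a2, a chloride transporter of crypt cells, and Cdca7 gave 3.87 ± 0.23, 2.56 ± 0.22 and 2.02 ± 0.15. Sp5 and Ccnd1, both known as targets of the pathway, gave -1.16 ± 0.14 and -1.08 ± 0.12. Of 9 pericentral liver genes, 8 were higher in liver and none in colon, led by Lect2, Cyp2e1 and Slc1a2 with -4.83 ± 0.10, -4.35 ± 0.22 and -3.93 ± 0.17.

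**Figure D5:**
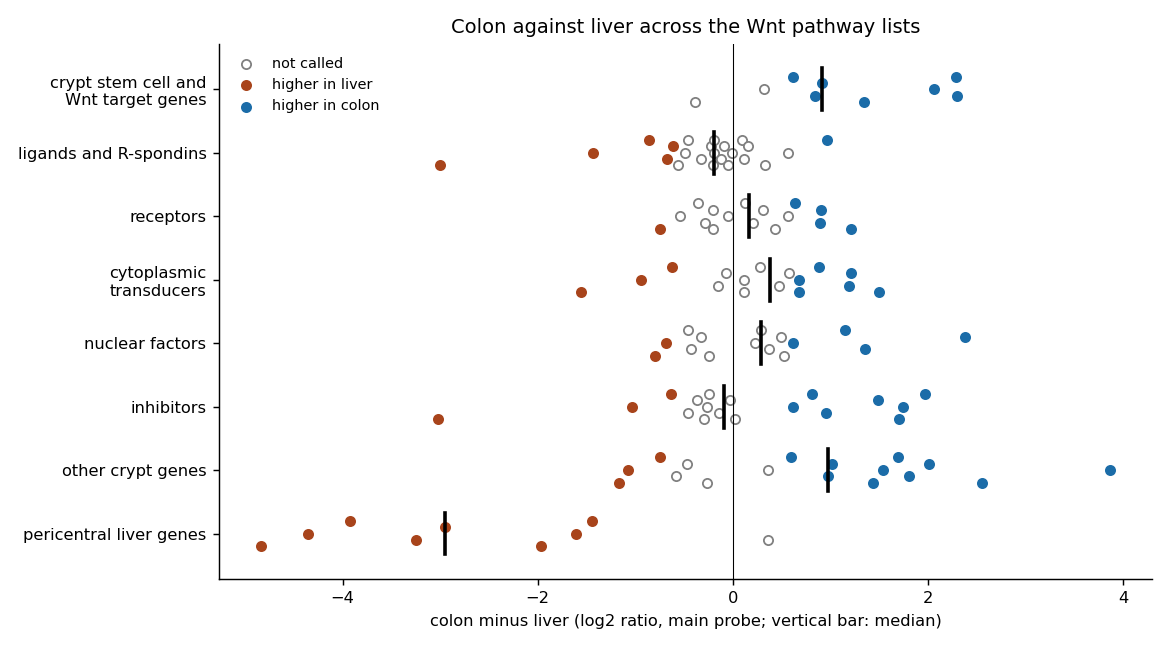
Colon minus liver (x axis, difference of log2 ratios) for the main probe of every gene of the 9 and of the 7 pathway lists (y axis), filled where the gene passed the adjusted P and the fold threshold, with a vertical bar at each list's median. The medians are 0.91 for the 9 genes, 0.98 for the other crypt genes and -2.95 for the pericentral liver genes.

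The genes whose ratio followed Lgr5 most closely over the 12 colon arrays, among 13792 probes well above background on all of them, were Odz4 (r = 0.903), Ddx24 (r = 0.849), NAP061133-1 (r = 0.843), Myl1 (r = 0.827) and Tnrc15 (r = 0.822). None of them belongs to the lists above. The arrays share slides, scan days and the reference, and the choice was made among many probes.

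Start-site sequences of 6 of the 9 genes were in the RefSeq table of build GRCm38.p6, with 7 windows of 250 bases before a start, 2 of them of Tcf7l2. They were searched on both strands for the core letters of a TCF/LEF site (CTTTG with A or T at each of the next 2 places). Of the 7 windows 1 held a match, against 14.8% of 32851 windows of all genes. It lay before the second start of Tcf7l2, with its first base 14 bases before the start, and is shown as the one match among these genes, with the matching letters in capitals.

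Tcf7l2 (chr19:55895071-55895320, forward strand, GRCm38.p6): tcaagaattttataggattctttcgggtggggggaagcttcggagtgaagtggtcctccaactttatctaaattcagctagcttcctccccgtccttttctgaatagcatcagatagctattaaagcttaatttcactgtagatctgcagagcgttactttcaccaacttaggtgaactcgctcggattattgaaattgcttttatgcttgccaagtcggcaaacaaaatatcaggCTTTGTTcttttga

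The match is one of letters and does not show that a factor binds there. The windows of Ascl2, Axin2, Cd44, Ephb2 and Ephb3 and the first of Tcf7l2 did not hold these letters.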

How the data were processed

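RNA of the colon and liver of 12 mice was measured on 24 two-colour arrays, on 6 slides that each held 1 array of every group. The intensity values used were deposited by the authors as the mean signal of each spot and the median of its local background, quantified with Feature Extraction 9.5 and not normalized. The submitters' processing notes name limma. Signals were background corrected by normexp (offset 50), flagged and control spots were left out (1639 controls of 45018 spots), and loess was run within each array with limma 3.58.1 (R 4.3.3), which gave 41174 probes. Normexp with an offset and loess both draw the ratios of dim spots towards 0. Samples were grouped by tissue and diet from the labels. The tissues were compared over the 24 arrays, mouse taken as random block (consensus correlation 0.158, statmod 1.5.0), the diets within each tissue, and P values were adjusted by Benjamini-Hochberg over all probes. Exact permutation tests used 4096 sign flips over mice or 924 assignments of arrays to diets. The tests were checked on simulated data.

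The 9 genes, the pathway lists and the tests were chosen with earlier results of these data known. A pathway gene was named where it was among up to 3 with the largest difference in each direction of its list, passed, and was well above background on at least 6 arrays of the higher tissue. Genes like Lgr5 were the 5 with the highest Pearson correlation. A current symbol was found for 22937 of the 23837 probes that carry a RefSeq mRNA accession. Tissues are paired by the mouse number of the labels. Their deviations from the group means correlated between -0.12 and 0.46. Replicate numbers, 1 to a slide, were shared between diets, and 4 of 6 such pairs correlated above 0.1 in each tissue. Arrays of a group were distinct, with correlations between 0.655 and 0.938 and no more than 0.00692% identical signals. The alternatives were another background correction, normalization, spot or probe filter, blocks for slide, scan day and mouse, each array left out, and 2 pairs and a set of 3 arrays left out that were chosen after seeing the data. A file listing the arrays held no measurements and was not used. Protein and methylation data were not analysed here.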

Additional observations from a re-analysis of the deposited data

Results flagged for a closer look

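The main Lgr5 probe read 0.779 (log2 ratio) in colon HF-low-suf replicate 3, while the other 5 colons of that group lay between 1.41 and 1.71. The gap to the nearest array was 0.682 of the range of the group, over the 95% critical value of 0.625 for 6 samples. Of 36 groups of 6 arrays (9 genes in 4 groups) this was the only one past that value, and chance gives about 1 in 20. Without that array the diet difference of Lgr5 in colon was 0.19, against 0.05 with it, and passed no threshold either way.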

How the results depend on the processing

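Colon against liver, 5 to 8 of the 9 genes passed under 18 alternatives and 6 or 7 with each array left out, against 7 as reported. The 8 came with the signals as processed by the scanning software and within the first scan day, where Ascl2 passed as higher in liver. Of the pathway genes 47 to 69 passed, and 53 to 59 with each array left out, against 57. With the replicate number, which pairs the diets by slide, as a block, 7 of the 9 genes and 56 pathway genes passed, and no call for diet was made among them. With no replicate block for mouse the counts were 7 and 57. Leaving out colon HF-low-suf replicate 5 and liver HF-low-suf replicate 4, whose Cy5 channel was very bright, or liver HF-low-suf replicates 1 and 2, or the 3 livers high in epithelium, proliferation and pancreas markers, choices made after seeing the data, gave 7 genes each. For diet the only genes that passed in an alternative were in colon within a scan day, with 3 arrays a group. Sox9, with 0.86, was 1 of the 9 genes on the second day, and the pathway genes were 1 on each day, Wnt3 with -0.98 on the first and Rspo1 with -0.88 on the second. Over all probes the number past the study's threshold for diet ran from 3 to 277 in colon and from 2 to 132 in liver under the alternatives, and from 23 to 256 and from 7 to 298 with arrays left out, against 69 and 45, and with the replicate block it was 92 and 124.

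The direction changed, by more than 1 SE or with a call, in 11 of 880 values, and the cause was not tested. With plain background subtraction Sox9 for diet in liver was -0.0769. With the signals as processed by the scanning software it was -0.28, and Lgr5 between the tissues was -0.13. With median centring Axin2 for diet in colon was 0.11. With Cy3 alone Myc and Sox9 for diet in liver were -0.0866 and -0.0906. On the first scan day Myc and Sox9 for diet in colon were -0.15 and -0.60. On the second Ascl2 between the tissues was 0.0029, and Axin2 and Tcf7l2 for diet in colon were 0.14 and 0.31. A further 50 values that did not pass changed sign by at most 1 SE. Signal over background limits Ascl2 in both tissues, Sox9, Ephb2 and Ephb3 in liver, and the dim probes of Sox9, Cd44, Ephb2 and Tcf7l2.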
